A study of Mus musculus with 23 samples.

Results

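The genes described here were the 68 genes for axon guidance ligands and receptors among the 24421 genes of the deposited table. They were picked by symbol, under a rule set with earlier results of these data known. They comprised 20 semaphorins and 9 plexins, 8 ephrins and 14 Eph receptors, 5 netrins and netrin-G genes and 6 netrin receptors, and 3 Slits and 3 Robos. All 68 passed the filter on low counts, as did 15475 genes of the table. The 23 libraries were made from polyadenylated RNA of mouse hippocampus taken at postnatal day (P) 14. Non-bled control pups (NBC) had a needle prick only, pups with moderate phlebotomy-induced anemia (mPIA) were bled to a hematocrit goal of 25%, and pups with severe anemia (sPIA) to a goal of 18%. From P3 on, 5.25 µl of blood per g was drawn 2 times a day from the facial vein, and after the goal was met 3.5 µl per g once a day. The sources used here name no strain or genotype. Each of the 6 groups was 1 sex at 1 anemia level and held 4 libraries, except NBC males with 3.

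Guidance cues are secreted or membrane-bound proteins that growing axons read through receptors on the growth cone. Semaphorins signal mainly through plexins, ephrins through Eph receptors, netrins through Dcc, Neo1 and the Unc5 proteins, and Slits through Robos. In the postnatal hippocampus the same families take part in the layering of entorhinal and mossy fiber inputs, in spine and synapse formation and in vessel patterning.

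Library totals lay between 15.2 and 26.4 M counts (M, mega-counts), apart from mPIA female 3 with 44.4 M, and the 68 genes took up 0.502% to 0.603% of each library. Marker transcripts of the hippocampus were present in every library: 9 dentate granule neuron markers summed to between 445 and 740 CPM (counts per mega-count, scaled by TMM) in the female libraries and between 474 and 706 CPM in the male libraries. Transcripts of choroid plexus and ependyma (12 markers) summed to 2130 CPM in NBC female 2, 1420 CPM in sPIA female 2, 2630 CPM in NBC male 3 and 4700 CPM in NBC male 4, and to no more than 276 CPM in the other libraries. Library codes in the labels fell into series. NBC and mPIA females shared one series, mPIA males formed a separate one, and both sPIA groups and NBC males shared a further one. Severe anemia in females therefore cannot be told apart from the code series, and neither can moderate anemia in males. The S numbers in the same codes ran from 13 to 20 in both sPIA groups and from 38 to 55 in the NBC and mPIA groups, so severe anemia in males cannot be told apart from that split either. No source used here says whether a code series marks a batch. The design text counts animals within each sex and level, and libraries were taken to be separate pups. Bulk counts cannot tell fewer cells of a type from less RNA per cell.

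Levels between genes were compared per length, as mean CPM per kb of exon over the 23 libraries. Efnb3, a transmembrane ephrin, was highest of the 68 at 63.9 CPM per kb, and Epha4, a receptor for both ephrin classes, followed at 57.2 CPM per kb. Sema7a, a membrane-anchored semaphorin, led its family at 36.2 CPM per kb, Plxna1, a plexin for class 3 and class 6 semaphorins, reached 32.1, Slit1 28.8, the repulsive netrin receptor Unc5a 27.8, Robo3 10.1 and Ntng2, a membrane-anchored netrin-G, 7.99 CPM per kb. At the low end were Epha1 at 0.0749 CPM per kb, Sema3a, a secreted repellent, at 0.401, Efna4 at 0.658 and Ntn4, a netrin of basement membranes, at 1.26 CPM per kb. Epha1 was at 0 CPM in sPIA female 3, and Efna4 was at 0 CPM in NBC male 4. Family medians ran from 2.43 CPM per kb in the netrins to 15 CPM per kb in the Slits.

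**Figure D1:**
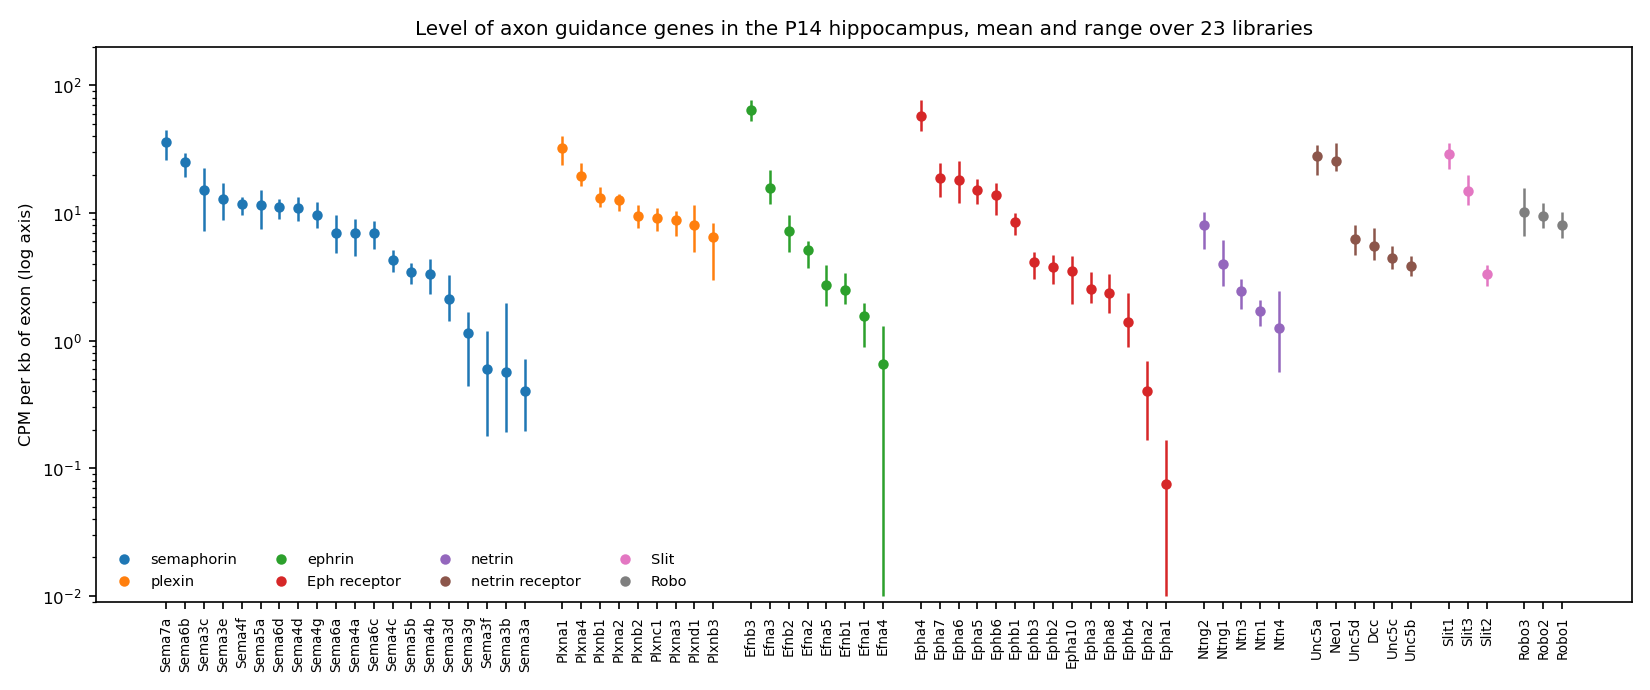
Level of each of the 68 guidance genes in CPM per kb of exon on a log axis, grouped by family; points are means over 23 libraries and lines run from the lowest to the highest library (a lowest value of 0, for Epha1 and Efna4, is drawn at the foot of the axis). Efnb3 at 63.9 and Epha4 at 57.2 CPM per kb stand highest, Epha1 at 0.0749 lowest.

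The upstream sequences of 4 genes are shown. Each gene was called against NBC of its sex and remained called with each library's trend of expression over GC content and length removed. Each gene also has 1 start listed in RefSeq (assembly GRCm38.p6). Further limits, on position and on bases inside an exon, were applied as well. Dcc, which also remained called, is not shown, so the 4 sequences need not cover every gene that met the conditions named first. Each runs over the 250 bases before the listed start, 5′ to 3′ on the gene's strand, and capitals mark the core of the hypoxia response element, ACGTG or GCGTG, on either strand. Hypoxia-inducible factors bind this core, and anemia lowers oxygen delivery, which is why it was searched.
Sema5a, chr15:32244563-32244812, plus strand: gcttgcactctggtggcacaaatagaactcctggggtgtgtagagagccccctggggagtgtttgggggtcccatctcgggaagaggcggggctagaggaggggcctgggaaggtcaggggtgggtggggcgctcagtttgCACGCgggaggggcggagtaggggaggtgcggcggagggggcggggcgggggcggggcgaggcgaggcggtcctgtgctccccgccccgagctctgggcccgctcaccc
Robo1, chr16:72662899-72663148, plus strand: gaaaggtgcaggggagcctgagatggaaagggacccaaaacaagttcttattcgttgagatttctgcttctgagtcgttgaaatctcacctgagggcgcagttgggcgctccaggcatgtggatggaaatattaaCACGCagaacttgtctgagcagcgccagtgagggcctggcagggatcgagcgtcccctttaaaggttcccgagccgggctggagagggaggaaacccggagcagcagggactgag
Epha4, chr1:77515089-77515338, minus strand: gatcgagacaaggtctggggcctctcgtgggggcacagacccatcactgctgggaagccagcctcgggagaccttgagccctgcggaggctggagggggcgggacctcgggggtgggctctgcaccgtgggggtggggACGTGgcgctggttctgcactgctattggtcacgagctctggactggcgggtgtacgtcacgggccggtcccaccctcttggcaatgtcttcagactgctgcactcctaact
Neo1, chr9:59036442-59036691, minus strand: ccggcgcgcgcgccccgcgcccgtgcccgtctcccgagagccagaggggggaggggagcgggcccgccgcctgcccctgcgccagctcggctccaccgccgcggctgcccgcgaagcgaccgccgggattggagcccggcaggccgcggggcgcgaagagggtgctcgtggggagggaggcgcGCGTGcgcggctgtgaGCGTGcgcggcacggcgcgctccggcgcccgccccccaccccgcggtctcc
Sema5a and Robo1 held 1 GCGTG core each, Epha4 1 ACGTG core and Neo1 2 GCGTG cores. RefSeq listed promoters for 58 of the 68 genes, 74 in all. Of these, 12 (16.2%) held ACGTG and 25 (33.8%) held GCGTG, against 16.6% and 28.2% of all 32851 promoters of the same length. The median GC content was 64.4% in the promoters of the guidance genes and 52.4% in all promoters. The part of GC content in these shares was not tested. The Robo1 start is an internal one, inside the gene's full span.

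Severe anemia in females gave the most calls among the 68 genes against NBC. Receptors for netrins and Slits (Dcc, Unc5c, Robo1, Robo2), the Eph receptors Epha3 and Epha4, and the semaphorins Sema5a, Sema3e, Sema3c and Sema6d were higher in sPIA females than in NBC females, as was the plexin Plxna4. Lower were the netrin-G Ntng1, the semaphorins Sema4g, Sema4a and Sema3f, the Eph receptors Ephb3 and Ephb6, and the ephrin Efnb3. In all, 18 of 68 (26.5%) passed at an adjusted p under 0.05 (edgeR's quasi-likelihood test, Benjamini-Hochberg over 15475 genes), 11 higher and 7 lower. Among all genes tested, 16% passed, 8.12% higher and 7.86% lower. The median log2 change of the 68 genes was -0.06, that of all genes 0. The 4 sPIA and 4 NBC values did not overlap for 18 of the 68 genes, against 21% of all genes.

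Among the semaphorins, 4 of 20 rose and 3 fell. Sema5a, a transmembrane semaphorin with thrombospondin repeats (chromosome 15, 32244810 to 32696341, plus strand, mm10), had 234, 284, 284 and 248 CPM in sPIA females, against 191, 141, 200 and 203 CPM in NBC females. All 4 sPIA values lay above all NBC values, and the log2 change was 0.52 (SE 0.10, 1.43-fold, edgeR adjusted p = 0.0008). Sema3e, the secreted ligand of Plxnd1, had 130, 139, 161 and 133 CPM in sPIA females, against 89.7, 123, 96.7 and 82 CPM in NBC females, a log2 change of 0.53 (SE 0.11, adjusted p = 0.00304). NBC female 2 came closest to the sPIA range. Sema6d, a transmembrane semaphorin that binds Plxna1, had 125, 125, 118 and 132 CPM in sPIA females, against 108, 94.7, 106 and 107 CPM in NBC females (log2 change 0.27, SE 0.07, adjusted p = 0.0116). These groups did not overlap either. Sema3c, a secreted class 3 semaphorin, had 96.4, 151, 135 and 162 CPM in sPIA females, against 76, 51.2, 96.6 and 105 CPM in NBC females. Its groups overlapped through sPIA female 1, and the log2 change was 0.73 (SE 0.19, adjusted p = 0.0145).

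Sema4g, a transmembrane class 4 semaphorin (chromosome 19, 44989101 to 45003397, plus strand), fell. It had 79.5, 74.1, 72.4 and 74 CPM in sPIA females, against 105, 95.5, 95.8 and 98.7 CPM in NBC females, a log2 change of -0.40 (SE 0.09, 0.759-fold, adjusted p = 0.00287). Sema4a, which also acts in the immune system, had 40.2, 30.3, 24.8 and 34 CPM in sPIA females, against 46.2, 43.5, 44 and 41.5 CPM in NBC females (log2 change -0.44, SE 0.12, adjusted p = 0.00968). For both genes every sPIA value was under every NBC value. Sema3f, a secreted repellent that acts through Nrp2, was a low-level gene with 2.02, 2.17, 0.933 and 1.68 CPM in sPIA females, against 6.15, 2.16, 4.6 and 3.19 CPM in NBC females. The groups overlapped through NBC female 2, and the log2 change was -1.24 (SE 0.37, adjusted p = 0.0207). The 13 other semaphorins did not pass. Their receptors, the plexins, gave 1 call of 9: Plxna4, a receptor partner for class 3 and class 6 semaphorins, had 249, 325, 319 and 311 CPM in sPIA females, against 261, 230, 260 and 242 CPM in NBC females (log2 change 0.28, SE 0.08, adjusted p = 0.0164). Its sPIA female 1 lay within the NBC range, and an antisense transcript, Plxna4os3, overlaps its exons on the other strand.

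Netrin receptors gave 2 rises among 6 and the netrins 1 fall among 5. Dcc, the attractive netrin receptor, had 65.7, 92.2, 95.1 and 88.4 CPM in sPIA females, against 63.3, 61.9, 61.5 and 64 CPM in NBC females. All sPIA values were higher, sPIA female 1 by the smallest margin, and the log2 change was 0.45 (SE 0.09, 1.36-fold, adjusted p = 0.00129). Unc5c, a repulsive netrin receptor, had 105, 90.8, 101 and 94.3 CPM in sPIA females, against 72.9, 87.8, 84.1 and 72.3 CPM in NBC females (log2 change 0.30, SE 0.08, adjusted p = 0.0145). Its exons are overlapped by an antisense gene, and the counts cannot be assigned by strand. Ntng1, a netrin-G that is tethered to the axon membrane and binds the postsynaptic adhesion protein NGL-1 (chromosome 3, 109780040 to 110144011, minus strand), had 23.5, 24.1, 25.8 and 22.1 CPM in sPIA females, against 38.3, 36, 40.8 and 33.7 CPM in NBC females. The groups lay well apart, with a log2 change of -0.64 (SE 0.15, 0.641-fold, adjusted p = 0.00452). The secreted netrins did not pass: Ntn1 changed by -0.16 (adjusted p = 0.482) on the log2 scale, Ntn3 by -0.31 (adjusted p = 0.134) and Ntn4 by -0.19 (adjusted p = 0.639).

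Of the Slit receptors, 2 of 3 rose, and of the Slits 0 of 3 passed (log2 changes 0.06 to 0.13). Robo1 (chromosome 16, 72308306 to 73046095, plus strand) had 143, 148, 169 and 152 CPM in sPIA females, against 112, 121, 118 and 105 CPM in NBC females. The groups did not overlap, and the log2 change was 0.42 (SE 0.09, 1.34-fold, adjusted p = 0.00292). Robo2 had 149, 191, 197 and 184 CPM in sPIA females, against 132, 155, 143 and 148 CPM in NBC females, a log2 change of 0.32 (SE 0.08, adjusted p = 0.0109). Here sPIA female 1 lay inside the NBC range. Robo3, which in the embryo regulates midline crossing, changed by -0.50 on the log2 scale without passing (adjusted p = 0.126).

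Eph receptors moved in both directions, 2 of 14 higher and 2 lower, and 1 of 8 ephrins fell. Epha4, a neuronal receptor that restrains dendritic spines (chromosome 1, 77367185 to 77515088, minus strand), had 493, 556, 607 and 531 CPM in sPIA females, against 373, 373, 378 and 427 CPM in NBC females. The sPIA values were all higher, with a log2 change of 0.50 (SE 0.11, 1.41-fold, adjusted p = 0.00326). Epha3 had 22.6, 26.2, 30.1 and 23.8 CPM in sPIA females, against 19.4, 17.5, 19.7 and 20.8 CPM in NBC females (log2 change 0.41, SE 0.10, adjusted p = 0.00756). These groups did not overlap. Ephb3, a receptor for transmembrane ephrins, had 20.3 to 26.2 CPM in sPIA females, against 28.7 to 32.9 CPM in NBC females (log2 change -0.35, SE 0.10, adjusted p = 0.015). Ephb6, which lacks kinase activity, had 46.1 to 50.5 CPM in sPIA females, against 56.1 to 65.4 CPM in NBC females (log2 change -0.32, SE 0.10, adjusted p = 0.0237). Efnb3, the highest of all members per length, had 167 to 201 CPM in sPIA females, against 215 to 228 CPM in NBC females (log2 change -0.23, SE 0.08, adjusted p = 0.0336). Of the 8 ephrins, 1 had a positive log2 change, Efna4 at 0.27 (adjusted p = 0.798).

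The remaining 50 genes did not pass in sPIA females against NBC females. Of the 68, 32 (47.1%) had an unadjusted edgeR p under 0.05, called genes included, against 29.1% of all genes. Nearest to the threshold were Efna3, a glycolipid-anchored ephrin (log2 change -0.31, adjusted p = 0.0506), and Ntng2, the other netrin-G (log2 change -0.31, adjusted p = 0.0546). Ntng2 had 31.2, 28.9, 28 and 30.8 CPM in sPIA females, against 40.4, 34.7, 32.6 and 39.4 CPM in NBC females, without overlap. Unc5a had 115, 102, 107 and 110 CPM in sPIA females, against 142, 137, 119 and 120 CPM in NBC females (log2 change -0.25, adjusted p = 0.0853), also without overlap. Among further EphA receptors, Epha7 had a log2 change of 0.39 (adjusted p = 0.116) and Epha5 of 0.27 (adjusted p = 0.114). Epha7 had 175, 228, 242 and 196 CPM in sPIA females, against 147, 132, 174 and 190 CPM in NBC females, and the groups overlapped through NBC female 4. The largest change in size among genes not called was that of Epha1, the lowest of all members, at -1.96 (adjusted p = 0.0907). Slit3, a secreted Robo ligand, lay at 81.7 to 100 CPM in sPIA females, against 77.1 to 95.3 CPM in NBC females. The plexins other than Plxna4 had log2 changes of -0.35 to 0.10.

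**Figure D2:**
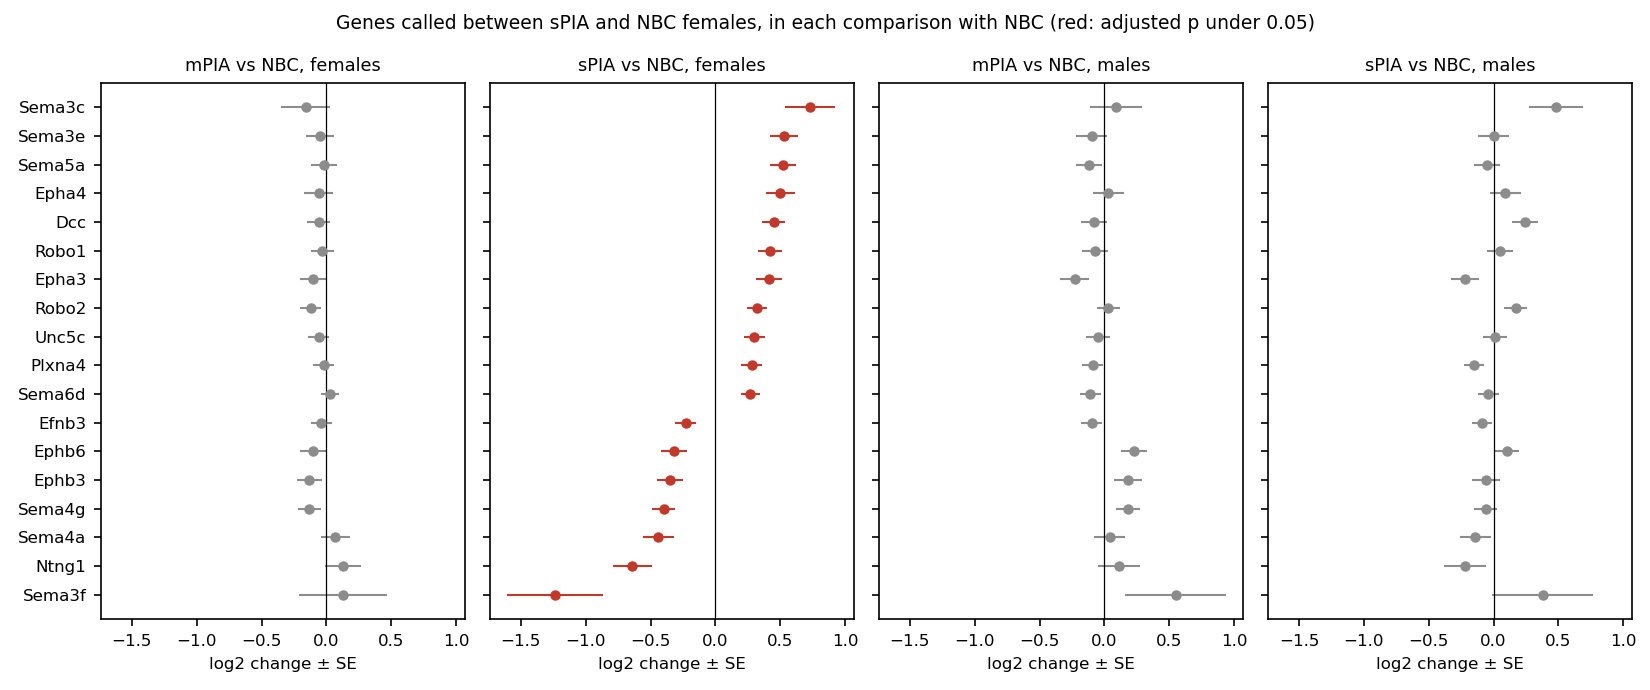
Log2 change ± SE of the 18 genes called between sPIA and NBC females, shown for mPIA and sPIA against NBC in females and then in males; red marks an adjusted p under 0.05. In sPIA females the changes run from -1.24 (Sema3f) to 0.73 (Sema3c); none of the 18 passed in the other 3 comparisons, all comparisons of a sex sharing its NBC libraries.

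By median, the GC content of transcripts was lower in the genes called higher than in the other genes. The 11 genes called higher had a GC content of 41.9% to 51.6% (median 44.4%) and a median exon length of 13171 bases. The 7 called lower had 46.5% to 59.4% (median 57.5%) and 5406 bases. The 50 not called had medians of 56.7% and 6162 bases, near those called lower. The rank correlation of expression relative to the mean library with GC content over all genes ran from -0.44 to 0.03 in sPIA females and from 0.18 to 0.55 in NBC females. The trend of this relative expression over GC content and length was then removed from each library. After that, 10 of the 68 genes passed, 9 of them among the 18, against 7.63% of all genes. Those 9 were Sema5a (0.39), Robo1 (0.36), Dcc (0.31), Epha4 (0.41), Plxna4 (0.26), Sema6d (0.23), Ntng1 (-0.71), Sema4g (-0.29) and Sema4a (-0.32), with the log2 change after removal in brackets; the tenth was Slit1 at 0.28. Of the 9 that no longer passed, Sema3e (0.37, adjusted p = 0.0591), Sema3c (0.60, 0.0681), Sema3f (-1.09, 0.0691), Epha3 (0.25, 0.105) and Ephb3 (-0.23, 0.182) kept more of their log2 change than Unc5c (0.15, 0.355), Robo2 (0.13, 0.357), Ephb6 (-0.12, 0.456) and Efnb3 (-0.05, 0.789).

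**Figure D3:**
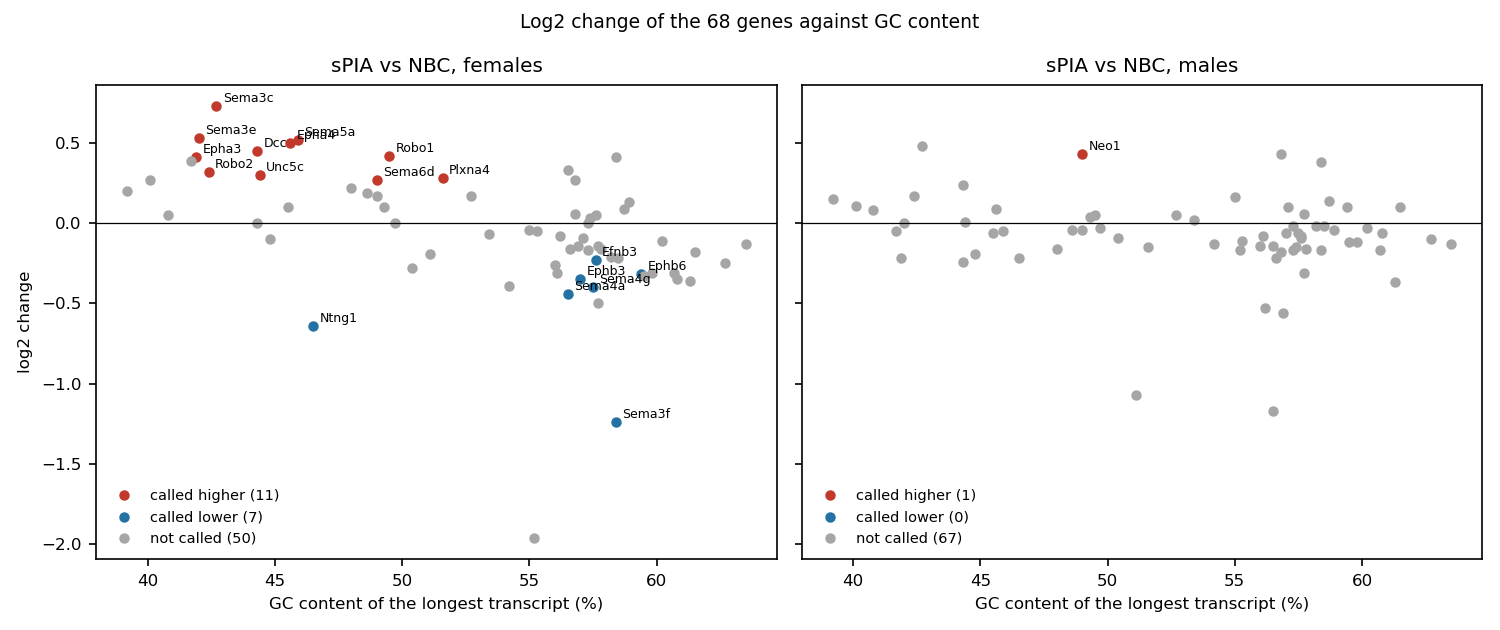
Log2 change of each of the 68 genes for sPIA against NBC, in females and in males, over the GC content (%) of the longest transcript; red and blue mark genes called higher and lower, grey those not called. In females the 11 genes called higher lie at a GC content of 41.9% to 51.6%.

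Markers of several cell types were also called in this comparison, to be read against the 16% of all genes called. Interneuron markers (12 genes) summed to 1020 to 1210 CPM in sPIA females, against 1280 to 1370 CPM in NBC females, with 5 of 12 called lower and 0 higher, Sst among them at a log2 change of -1.22. Deep cortical and subicular markers summed to 449 to 522 CPM in sPIA females, against 387 to 585 CPM in NBC females, with 1 of 12 called higher and 3 lower (Fezf2 -1.03, Nts -2.89, Cplx3 -2.23). Astrocyte markers summed to 6660 to 8130 CPM in sPIA females, against 6270 to 6490 CPM in NBC females, with 3 of 12 called higher (Sox9 at 0.76 among them) and 1 lower. Endothelial markers summed to 343 to 388 CPM in sPIA females, against 289 to 308 CPM in NBC females, with 3 of 12 called higher and 0 lower. Dentate granule neuron markers summed to 521 to 740 CPM in sPIA females, against 445 to 528 CPM in NBC females. In that list 2 of 9 were called higher and 0 lower, with a median log2 change of 0.42. The lowest sPIA sum, 521 CPM, was that of sPIA female 1. Of the other lists, CA1 and CA3 neurons had 1 of 12 called higher and 2 lower, and thalamic neurons 1 of 9 higher and 2 lower. Cajal-Retzius, pericyte and meningeal markers had 1 called higher each, oligodendrocyte precursors 1 lower, and the microglia, myelin and choroid plexus lists 0. No marker of these lists was at 0 in all libraries. The part of cell composition and GC content in the changes of the guidance genes was not tested. Without NBC female 2 and sPIA female 2, the pair rich in choroid plexus transcripts, 11 of the 68 genes passed, all among the 18 (7 higher, 4 lower); this setting was chosen after seeing the data. All genes called then numbered 1478, against 2472 with every library. Without NBC female 1 they numbered 1421 and without sPIA female 3 1562, with 14 of the 68 guidance genes called in either case. The 7 guidance genes that did not pass without the choroid-rich pair were Sema3c (log2 change 0.51, adjusted p = 0.0712), Epha3 (0.37, 0.0576), Sema4a (-0.40, 0.0596), Sema6d (0.23, 0.0719), Efnb3 (-0.24, 0.101), Plxna4 (0.21, 0.139) and Ephb6 (-0.24, 0.186). These log2 changes kept their signs, and those of Epha3, Sema4a, Sema6d and Efnb3 moved by no more than 0.04.

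Moderate anemia in females was not accompanied by any call: 0 of 68 guidance genes passed in mPIA females against NBC females (edgeR adjusted p), 0 had an unadjusted p under 0.05, and DESeq2 and limma-voom called 0. Among all genes, 0.00646% passed (1 gene). The median log2 change was -0.02 over the 68 genes and -0.01 over all genes. The smallest p-values belonged to Ephb3 (log2 change -0.13), Robo2 (-0.12) and Sema4g (-0.13), each with an adjusted p of 1. Ranges did not overlap for 2 of the 68 genes, against 1.54% of all genes. Dcc, for example, had 60.4, 62.3, 61 and 56.5 CPM in mPIA females, against 63.3, 61.9, 61.5 and 64 CPM in NBC females, and Ntng1 had 36.9 to 49 CPM in mPIA females, against 33.7 to 40.8 CPM in NBC females; both overlapped. Sema5a had 183, 188, 187 and 168 CPM in mPIA females, inside the NBC range, and Epha4 364, 385, 385 and 357 CPM, which overlapped it.

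Between the anemia levels in females, 15 of the 68 genes (22.1%) passed for sPIA against mPIA, 11 higher and 4 lower, against 16.1% of all genes (8.67% higher, 7.48% lower). This comparison shares the sPIA libraries with the one above, so its values are given beside it and add no separate count. Dcc changed by 0.51 (adjusted p = 0.000325), Sema5a by 0.53 (0.00048), Robo2 by 0.43 (0.00084), Epha3 by 0.51 (0.00111), Sema3e by 0.58 (0.00115), Epha4 by 0.55 (0.00116), Robo1 by 0.46 (0.00125), Unc5c by 0.36 (0.00338) and Sema3c by 0.89 (0.00387) on the log2 scale (edgeR). Ntng1 changed by -0.77 (0.000876), Sema4a by -0.51 (0.0029) and Sema3f by -1.37 (0.00997). Robo2 had 149, 191, 197 and 184 CPM in sPIA females, against 130, 134, 140 and 130 CPM in mPIA females, without overlap. Sema3c had 96.4, 151, 135 and 162 CPM in sPIA females, against 82.5, 74.3, 74 and 63.4 CPM in mPIA females, also without overlap. Ranges did not overlap for 23 of the 68 genes, against 24.3% of all genes. With the GC and length trend removed, 14 of the 68 passed, 12 of them among the 15, against 9.15% of all genes.

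**Figure D4:**
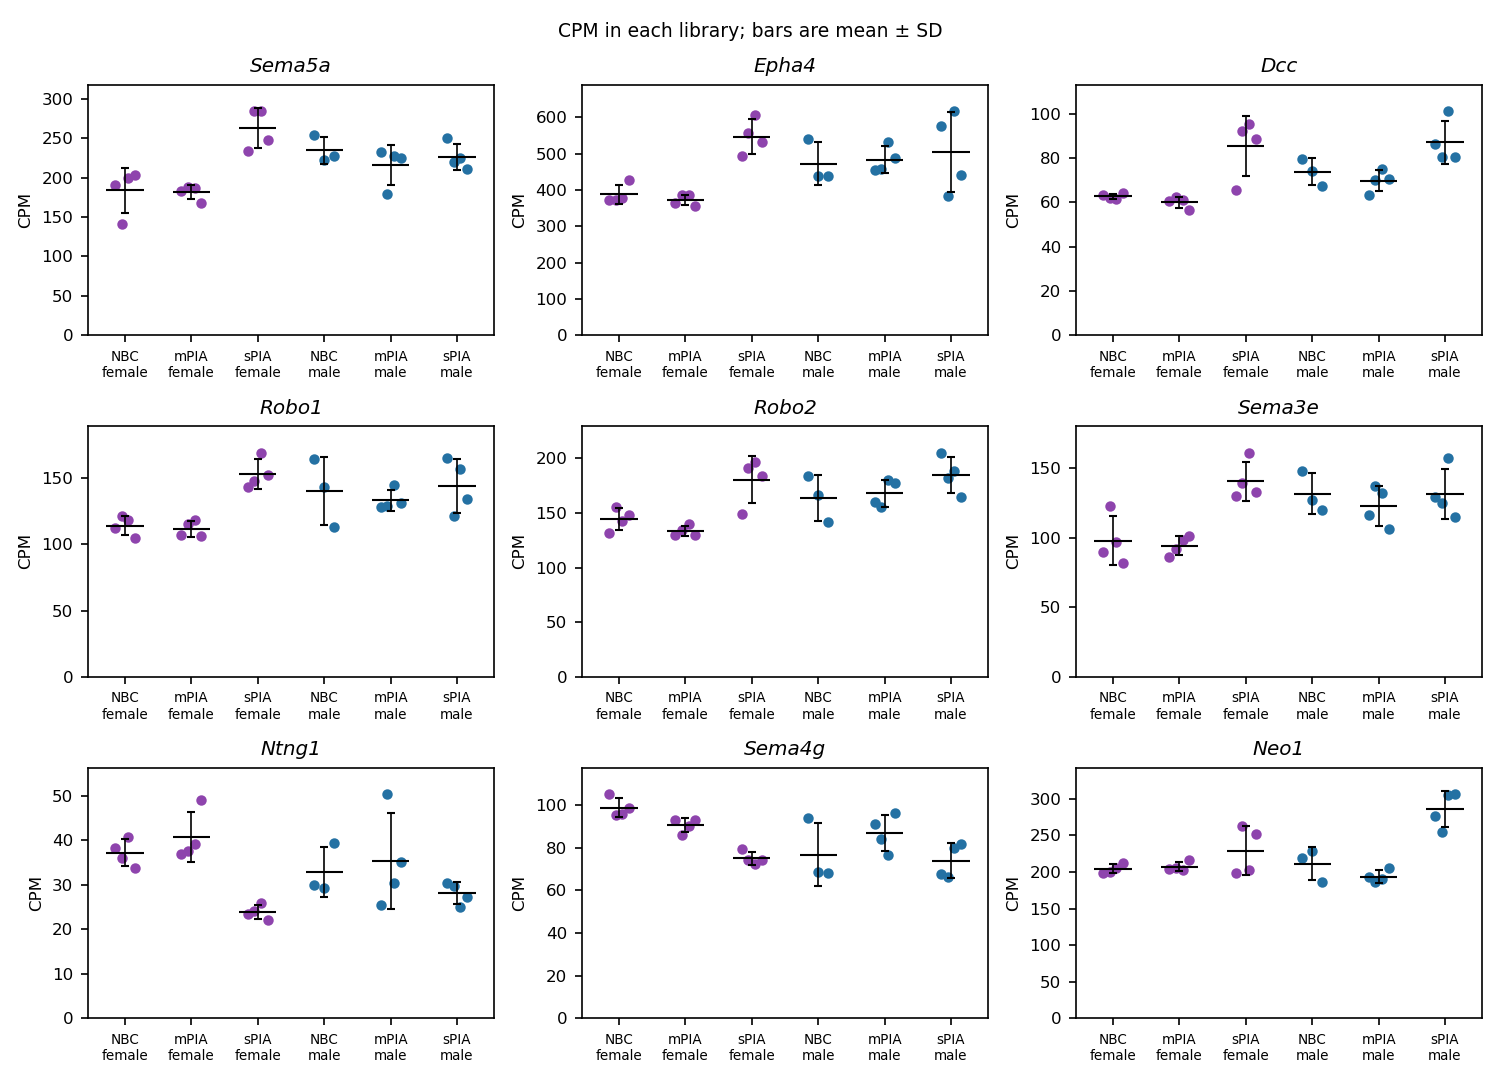
CPM of 9 guidance genes in each library, by anemia level within females (purple) and males (blue); bars are mean ± SD (n = 4, NBC males 3). Sema5a, Epha4, Dcc, Robo1 and Sema3e sit higher in sPIA females than in NBC females without overlap, Ntng1 and Sema4g lower, and Neo1 lies at 255 to 306 CPM in sPIA males, above the NBC and mPIA males.

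Severe anemia in males gave 1 call of 68 against NBC males, Neo1, against 0.194% of all genes (0.084% higher, 0.11% lower). Neo1, a receptor for netrins and for repulsive guidance molecules (chromosome 9, 58874687 to 59036441, minus strand), had 276, 255, 305 and 306 CPM in sPIA males, against 219, 229 and 186 CPM in NBC males. The groups did not overlap, and the log2 change was 0.43 (SE 0.09, 1.35-fold, adjusted p = 0.0194). With the GC and length trend removed it was 0.45 (adjusted p = 0.0121). The call was lost without NBC male 4, without sPIA male 3 and without sPIA male 4, with 0 of the 68 genes called in each case. In females Neo1 had 199, 263, 203 and 252 CPM in sPIA females, against 199, 200, 206 and 212 CPM in NBC females (log2 change 0.17, adjusted p = 0.164). Next by p in males were Ntn4 and Sema3b, neither past the threshold. Ntn4 had 3.96, 2.68, 3.09 and 2.14 CPM in sPIA males, against 5.28, 4.45 and 9.16 CPM in NBC males (log2 change -1.07, SE 0.24, adjusted p = 0.0616), and Sema3b gave a log2 change of -1.17 (SE 0.37, adjusted p = 0.186). Ranges did not overlap for 5 of the 68 genes, against 6.31% of all genes.

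Moderate anemia in males also gave 1 call of 68 against NBC males, against 0.653% of all genes (0.155% higher, 0.498% lower). Sema3b, a secreted class 3 semaphorin (chromosome 9, 107597674 to 107609229, minus strand), had 2.21, 1.52, 2.01 and 1.75 CPM in mPIA males, against 3.01, 5.73 and 9.42 CPM in NBC males. All mPIA values were lower, with a log2 change of -1.69 (SE 0.38, 0.31-fold, adjusted p = 0.036), and the NBC values ranged widely among themselves. Meningeal and fibroblast markers (12 genes) summed to 288 to 416 CPM in mPIA males, against 369, 864 and 738 CPM in NBC males 2, 3 and 4, and choroid plexus and ependymal markers to 26.2 to 63.3 CPM, against 32.6, 2630 and 4700 CPM. The part of these tissues in the Sema3b value was not tested. The Sema3b call was lost when any 1 library of either group was left out, except NBC male 2, without which 6 of the 68 genes passed. Calls over all genes also rose without NBC male 2, to 1124 of 15680 tested, against 101 with every library. The next smallest p-values were those of Unc5d, a netrin receptor of the Unc5 family (log2 change -0.49, SE 0.13, adjusted p = 0.0641), and Ephb4, the receptor of vein endothelium (log2 change -0.65, SE 0.19, adjusted p = 0.0821). Unc5d had 43.9, 62.8, 47.8 and 43.5 CPM in mPIA males, against 62.1, 72.6 and 74.3 CPM in NBC males. Ephb4 had 6.48, 4.94, 4.64 and 5.53 CPM in mPIA males, against 5.72, 8.82 and 10.9 CPM in NBC males. For both the groups overlapped. Over all 68 genes, ranges did not overlap for 3, against 9.8% of all genes.

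**Figure D5:**
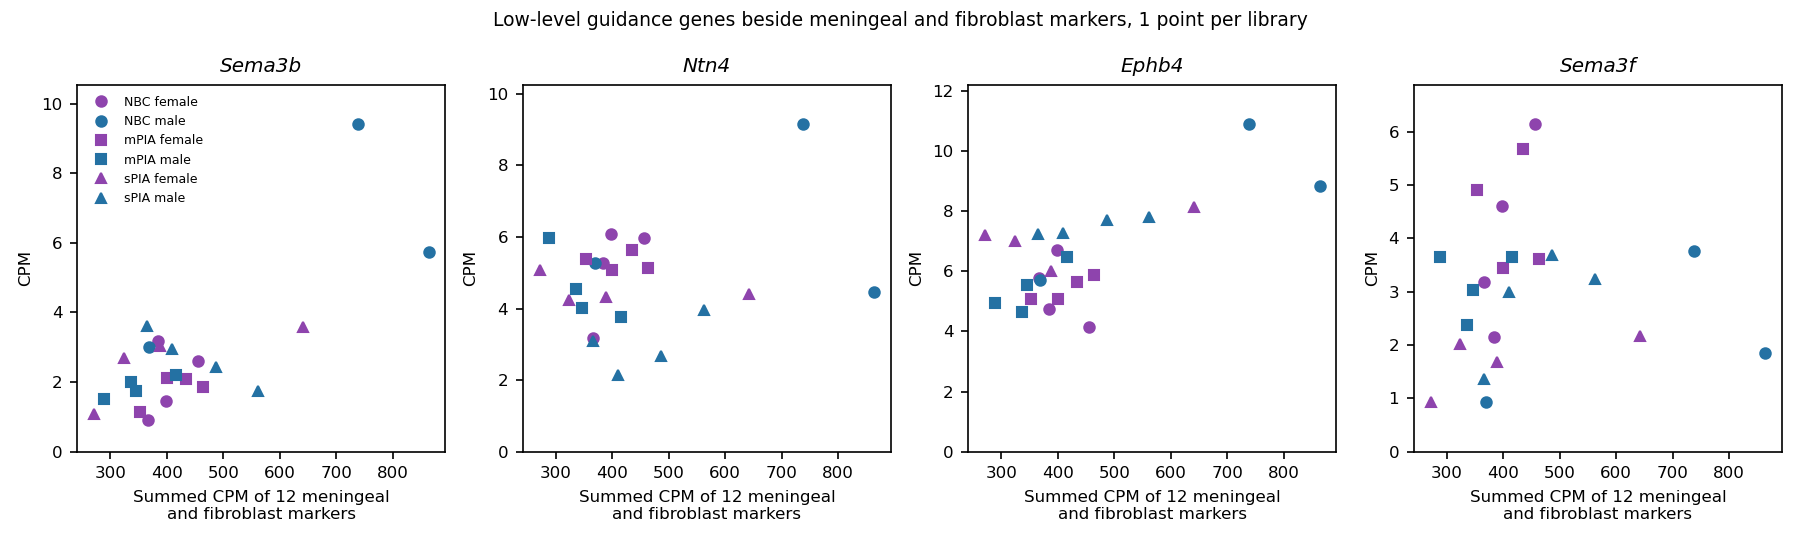
CPM of Sema3b, Ntn4, Ephb4 and Sema3f in each library over the summed CPM of 12 meningeal and fibroblast markers; symbols give the anemia level and colors the sex (purple female, blue male). NBC males 3 and 4, with marker sums of 864 and 738 CPM, have Sema3b values of 5.73 and 9.42 CPM, while the 4 mPIA males lie between 1.52 and 2.21 CPM.

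For sPIA against mPIA in males, 5 of 68 genes (7.35%) passed, against 4.92% of all genes (2.13% higher, 2.8% lower). Neo1 had 276, 255, 305 and 306 CPM in sPIA males, against 193, 186, 190 and 206 CPM in mPIA males, a log2 change of 0.56 (SE 0.08, 1.47-fold, adjusted p = 0.000318), and it was called without any 1 of the 8 libraries. Dcc, the other netrin receptor that rose, had 86.1, 80.6, 101 and 80.6 CPM in sPIA males, against 63.4, 70, 74.8 and 70.5 CPM in mPIA males (log2 change 0.32, SE 0.09, adjusted p = 0.0344). Both receptors were without overlap. Sema6b, a transmembrane class 6 semaphorin, had 82.3, 76.7, 92.9 and 97.6 CPM in sPIA males, against 110, 102, 104 and 113 CPM in mPIA males (log2 change -0.30, SE 0.08, adjusted p = 0.0338). Plxna1, a receptor of that class, had 277, 215, 286 and 246 CPM in sPIA males, against 301, 314, 319 and 322 CPM in mPIA males (log2 change -0.30, SE 0.08, adjusted p = 0.0398). These ligand and receptor levels were lower in every sPIA male than in any mPIA male. Epha10, an Eph receptor without kinase activity, had 21.8, 24.4, 14 and 24.5 CPM in sPIA males, against 33.4, 28.4, 26.2 and 31.3 CPM in mPIA males (log2 change -0.49, SE 0.14, adjusted p = 0.0447). Plxna1 and Epha10 have an antisense gene over their exons. With the GC and length trend removed, Neo1 remained of the 5, and it was the only 1 called among the 68, against 1.53% of all genes. Markers were called here too: of 12 interneuron markers 3 were lower (Sst -0.62, Lamp5 -0.39, Slc32a1 -0.30), with sums of 1160 to 1260 CPM in sPIA males and 1250 to 1410 CPM in mPIA males. Of 12 CA markers only Pou3f1 was called (-0.76), and of 12 deep cortical markers only Fezf2 (-0.52), both lower. Trp73 was called higher among 7 Cajal-Retzius markers (0.73), Kdr among 12 endothelial (0.41) and P2ry12 among 12 microglia markers (0.32), 1 gene in each list. Of 12 astrocyte markers, Aqp4 was higher (0.61) and Gjb6 lower (-0.51). Median log2 changes were -0.27 for the CA list, 0.03 for the deep cortical and 0.63 for the Cajal-Retzius list. They were 0.03 for the endothelial, 0.06 for the microglia and -0.07 for the astrocyte list. The part of cell composition in the guidance gene changes was not tested. Without mPIA male 1, mPIA male 4 or sPIA male 1 in turn, 1 gene passed, and without sPIA male 2, 2 did. Ranges did not overlap for 8 of the 68 genes, against 10.6% of all genes.

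The sexes were compared by the difference of their anemia effects, females minus males. For severe anemia 2 of 68 genes passed (2.94%, both higher), against 0.95% of all genes (0.601% higher, 0.349% lower). Epha3 had a log2 change of 0.41 in females and -0.22 in males, with 26, 20.7, 23.4 and 20 CPM in sPIA males against 26.4, 25.3 and 27.3 CPM in NBC males. The difference was 0.64 (SE 0.15, adjusted p = 0.0391). Sema5a had a log2 change of 0.52 in females and -0.05 in males, with 250, 220, 225 and 211 CPM in sPIA males against 254, 222 and 228 CPM in NBC males, a difference of 0.57 (SE 0.14, adjusted p = 0.0477). For both genes the male groups overlapped, while the female groups were apart. Plxna4 came next at 0.42 (SE 0.12, adjusted p = 0.0651). Cell type markers were called in this difference too. Rfx3 (0.85, 1 of 9 dentate markers) and Sox9 (0.88, 1 of 12 astrocyte markers) were higher. Fezf2 (-0.94, 1 of 12 deep cortical markers) and Sst (-0.82, 1 of 12 interneuron markers) were lower. NBC males 3 and 4, NBC female 2 and sPIA female 2 were the libraries rich in choroid plexus transcripts. The part of cell composition in the sex differences was not tested. With the GC and length trend removed, 0 of 68 passed the test of the difference, and the library code series differs between sPIA and NBC in females, while the S numbers split sPIA from NBC in both sexes. The Epha3 call held in 8 of 15 cases with 1 library left out (differences 0.56 to 0.71), and was lost without NBC male 4, sPIA male 4, NBC female 1, 2 or 3, or sPIA female 2 or 3. The Sema5a call held in 6 of 15 (0.47 to 0.63), and was lost without NBC male 2 or 4, sPIA male 2, 3 or 4, NBC female 1 or 2, or sPIA female 2 or 3. For moderate anemia 0 of 68 passed (0% of all genes; 11 of the 68 and 1103 of all genes had an unadjusted p under 0.05, and DESeq2 and limma-voom called 0). The smallest p-values there were those of Unc5d (difference 0.62, adjusted p = 0.633), Sema3b (1.51, adjusted p = 0.659) and Ephb4 (0.68, adjusted p = 0.659).

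The 2 sexes, which share no libraries, can be set side by side. Of the 11 genes called higher in sPIA females against NBC females, 6 had a positive log2 change in males, 0 of them called, with medians of 0.42 in females and 0.01 in males. Of the 7 called lower, 5 had a negative one in males, with medians of -0.40 in females and -0.06 in males. For sPIA against mPIA, 10 of the 11 called higher in females were positive in males and 4 of 4 called lower were negative, with Dcc called in both sexes. The share of all genes with the same sign in both sexes was not counted. In both sexes the S numbers split sPIA from the NBC and mPIA libraries, so shared signs cannot be told apart from that split. Apart from Epha3 and Sema5a, the difference between sexes did not pass for the 18 genes called in females, which does not show that the sexes acted alike.

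Further genes of the guidance pathway were counted from 3 lists, beside the 16% of all genes called for sPIA against NBC females and 16.1% for sPIA against mPIA females. Of 30 coreceptors and further ligands, 4 were higher and 2 lower in sPIA females than in NBC females. The 3 with the smallest p were Rgma, a repulsive guidance molecule and Neo1 ligand (log2 change -0.45, adjusted p = 0.00107), Wnt5a, a secreted cue read by Ryk and Ror receptors (0.58, adjusted p = 0.00113), and Rtn4, which encodes the Nogo growth inhibitors (0.28, adjusted p = 0.00648). Of 48 cytoplasmic effectors, 7 were higher and 5 lower. They were led by Dpysl4 (-0.48, adjusted p = 6.43e-05) and Dpysl2 (0.41, adjusted p = 0.000386), both of the collapsin response mediator family downstream of semaphorins, and Ngef (-0.45, adjusted p = 0.000309). Of 12 proteases, Adamts1, a secreted matrix protease, was called (0.41, adjusted p = 0.0061). For sPIA against mPIA in females the counts were 5 higher and 2 lower, 8 higher and 5 lower, and 2 higher. In mPIA females against NBC females the 3 lists had 0 calls.

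In males the calls over all genes were 0.194% for sPIA against NBC, 0.653% for mPIA against NBC and 4.92% for sPIA against mPIA. Within the 3 lists, Adamts1 was lower in both anemic groups than in NBC males, by a log2 change of -0.59 in sPIA males (adjusted p = 0.0111) and -0.52 in mPIA males (adjusted p = 0.018). Both values rest on the same 3 NBC males, of which NBC males 3 and 4 were rich in meningeal (864 and 738 CPM) and choroid plexus (2630 and 4700 CPM) transcripts, whose part was not tested. Adamts1 was higher in sPIA females than in NBC females. Its difference between sexes in the sPIA effect was 1.01 and passed. Ablim1, an actin-binding effector, was higher in sPIA males than in NBC males (0.42, adjusted p = 0.00397). Against mPIA males, sPIA males had higher Draxin, a secreted cue that binds Dcc (1.10, adjusted p = 0.00291), higher Ablim1 (0.28, adjusted p = 0.0105), and lower Kalrn (-0.30, adjusted p = 0.0148), Chn1 (-0.24, adjusted p = 0.0249) and Ngef (-0.26, adjusted p = 0.0496). Draxin was also called in sPIA females against NBC females, at 0.58 (adjusted p = 0.0393).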

How the data were processed

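The authors deposited a table of raw read counts, 1 whole number per gene and library, without normalization. According to the submitters' processing notes, FastQC, TopHat2 2.0.13, Subread and edgeR were used with build mm10. Their roles, the annotation and the strand setting are in no source used here. Counts of genes whose exons overlap another gene are therefore uncertain, but no such gene was left out. Besides the overlaps given with the results, this holds for Sema4a, Ntn3, Ntng2 and Plxnc1, each overlapped on the same strand. It also holds for Unc5a, Epha1, Epha6, Ephb1, Ephb4, Efna3, Efna4, Plxnb1 and Sema4c, overlapped on the other strand. Per the labels' protocols, libraries were made with Illumina TruSeq chemistry. Of 24421 gene symbols, 23350 are in GENCODE M21, which gave positions, GC content and exon length.

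The members, gene lists and rules were chosen with earlier results of these data known. All libraries entered 1 edgeR quasi-likelihood fit of 6 group means (robust, TMM), with filterByExpr (minimum count 10, minimum total 15) and Benjamini-Hochberg adjustment at 0.05 within each comparison over 15475 genes. The test was checked on simulated counts. Values were named for called members, at most 12 per comparison by smallest p, with the smallest p-values added up to 3 genes. Up to 3 called genes of each pathway list were named as well. A further 6 called members of sPIA against NBC females were named after their values were seen. So were Robo3, the secreted netrins, Efna4, Draxin in females, Ngef in males and the marker genes. The same holds for Efna3, Ntng2, Unc5a, Epha7, Epha5, Epha1, Slit1 and Slit3, which were not called in that female comparison. All 33 replicate pairs were distinct, with a chi-square of 3.01 to 30.2 per degree of freedom between their counts, and each library was counted once. Alternatives were DESeq2, limma-voom, other scalings and filters, and only the compared groups. Further ones were removal of each library's loess trend (span 0.4) of expression over GC content and length, replicate and library code blocks, and leaving out libraries. Tests ran in R 4.3.3 with DESeq2 1.42.0, limma 3.58.1 and edgeR 4.0.16, and figures in Python 3.11.15 with matplotlib 3.10.9.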

Additional observations from a re-analysis of the deposited data

Results flagged for a closer look

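In groups of 4 libraries, the gap of the highest or lowest value to its nearest neighbour was set against Dixon's critical ratio of 0.829, for 26 genes in 130 groups; chance alone gives such a value in about 1 in 20 groups. It was passed by Efnb3 in mPIA female 4 (245 CPM, the other 3 at 207 to 210), Epha4 in NBC female 4 (427 CPM, others 373 to 378), Sema5a in mPIA male 2 (179 CPM, others 225 to 232), Sema6d in mPIA male 2 (96.6 CPM, others 123 to 128) and Sema6d in NBC female 2 (94.7 CPM, others 106 to 108).

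The effect of severe anemia against NBC differed between the sexes, females minus males, by an edgeR interaction test for Epha3 (0.64 on the log2 scale) and for Sema5a (0.57). With 1 library left out, the calls held in 8 and 6 of 15 cases.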

How the results depend on the processing

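No log2 change of a called gene reversed under any alternative run. Of 68 genes, 18 passed for sPIA against NBC females; 10 passed with the GC content and length trend removed, 11 without NBC female 2 and sPIA female 2, and 14 to 19 with 1 library left out. For sPIA against mPIA females (15), 23 passed with only the compared groups fitted, and 13 to 16 with 1 library left out. For sPIA against mPIA males (5), 1 passed with only the compared groups fitted, 1 with the GC and length trend removed, and 1 to 5 with 1 library left out. For sPIA against NBC males (1), 2 passed by DESeq2, 2 with no low-count filter, 0 with only the compared groups fitted, and 0 to 3 with 1 library left out. For mPIA against NBC males (1), 3 passed by DESeq2, 0 by limma-voom, 0 with only the compared groups fitted, 2 with the GC and length trend removed, and 0 to 6 with 1 library left out. The 6 came without NBC male 2, where 1124 of all genes were called, against 101 in the main fit. For the sex difference of the sPIA effect (2), 4 passed by DESeq2, 1 by limma-voom, 1 by library totals only, 1 with no low-count filter, 0 with only the compared groups fitted, 0 with the GC and length trend removed, and 0 to 4 with 1 library left out. For mPIA against NBC females and the sex difference of the mPIA effect, every alternative gave 0, the block on library code prefix among them for the female comparison. The cause of these shifts was not tested.

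Deviations of samples with the same number correlated at -0.08 to 0.15. In mPIA against NBC females, where equal numbers share a library code prefix, the correlations were 0.11, 0.04, 0.12 and 0.15. Not every pair passed 0.1, and the main fit used no pairs, but all were positive, so pairing is not settled. NBC females 1 and 2 and mPIA females 1 and 2 also share the prefix 86. Whether libraries with a shared prefix are independent was not tested. With a replicate block, 18 genes passed for sPIA against NBC females, 0 for mPIA against NBC males and 1 for the sex difference of the sPIA effect. Depth was not tested as a limit; Sema3b, Sema3f and Ntn4, at a few CPM, had standard errors of 0.38, 0.37 and 0.24 in the comparisons reported.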
